A study of Mus musculus with 4 samples.

Results

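The genes described here are the Wnt, Fgf, Bmp, Gdf, activin and inhibin, Tgf-beta, Nodal, hedgehog, Pdgf and Vegf ligands of the mouse, read from the gene lists of single-cell RNA-seq libraries of the fetal pancreas. They were chosen by patterns in their symbols and not by measured values. The annotation holds 84 such genes in 10 families, and 74 of them were among the 29652 genes that at least 1 of the 3 complete lists held. The libraries were, in the labels' terms, E15.5 KO and E13.5 KO (Pdxcre with Setd2 f/f) and E15.5 WT and E13.5 WT (Setd2 f/f without the Cre), all on a C57BL/6 background, with 1 library per group. All 4 groups thus carry the floxed Setd2 allele, and the KO groups add a Cre driven from Pdx1 regulatory sequence, which is active in the pancreatic epithelium. Setd2 encodes the enzyme that trimethylates lysine 36 of histone H3. Cells were labelled for EpCAM, an epithelial surface protein, and sorted. The sources used here give neither the fraction kept nor the number of embryos.

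The only datum was the presence of a gene in a list. Counts and cells were not analysed here, so a listing carries no level and the depth is unknown. The E15.5 KO list held 25474 genes, of which 16717 were protein-coding, the E13.5 KO list 26341 with 17154, and the E13.5 WT list 25463 with 17108. The E15.5 WT list was cut after 167 entries and bears on 5 of the 84 ligands. With 1 library per group no test was possible, and differences between lists have no replicate check. Setd2 was in all 3 complete lists, which does not check the genotype, since a listing does not separate deleted from remaining exons. The 6 epithelial markers, Epcam and Cdh1 among them, and the 9 markers of pancreatic epithelium, Pdx1 and Ptf1a among them, were in all 3. So were 72.8% of all annotated protein-coding genes and the 5 mesothelium markers, so complete marker lists do not show which cells were kept. Markers of other cell types were listed too, so the source cell of a ligand cannot be told from a list.

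These ligands are secreted proteins by which neighbouring cells instruct each other. Wnt proteins bind Frizzled receptors and stabilise beta-catenin, Fgfs activate receptor tyrosine kinases, Tgf-beta family members act through receptor serine kinases and Smad proteins, and hedgehog proteins release Smoothened from its inhibitor Patched. In the pancreas, Fgf10 from the mesenchyme keeps epithelial progenitors dividing, hedgehog signalling is kept low in the early bud, and Vegfa from the epithelium attracts blood vessels. The label of secreted ligands does not hold for every symbol. Fgf11, Fgf12, Fgf13 and Fgf14 are intracellular proteins that bind sodium channels, and Bmp1 is a protease that trims procollagen. These 5 genes were in all 3 complete lists.

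Of the 84 ligands, 65 (77.4%) were in all 3 complete lists, 9 in some and 10 in none. Among all 22028 annotated protein-coding genes the same shares were 72.8%, 8.67% and 18.5%. The 9 genes in which the lists differed were 6 Wnts (Wnt2, Wnt7a, Wnt8a, Wnt8b, Wnt10a and Wnt10b), 2 Gdfs (Gdf2 and Gdf3) and Fgf8. The hedgehog, Pdgf, Vegf, Tgf-beta, and activin and inhibin families had no differing and no missing member. Of the 74 ligands listed anywhere, 9 (12.2%) were in some but not all lists, against 10.6% of the 17949 protein-coding genes listed anywhere, so the ligands as a whole differed between libraries about as often as other coding genes.

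**Figure D1:**
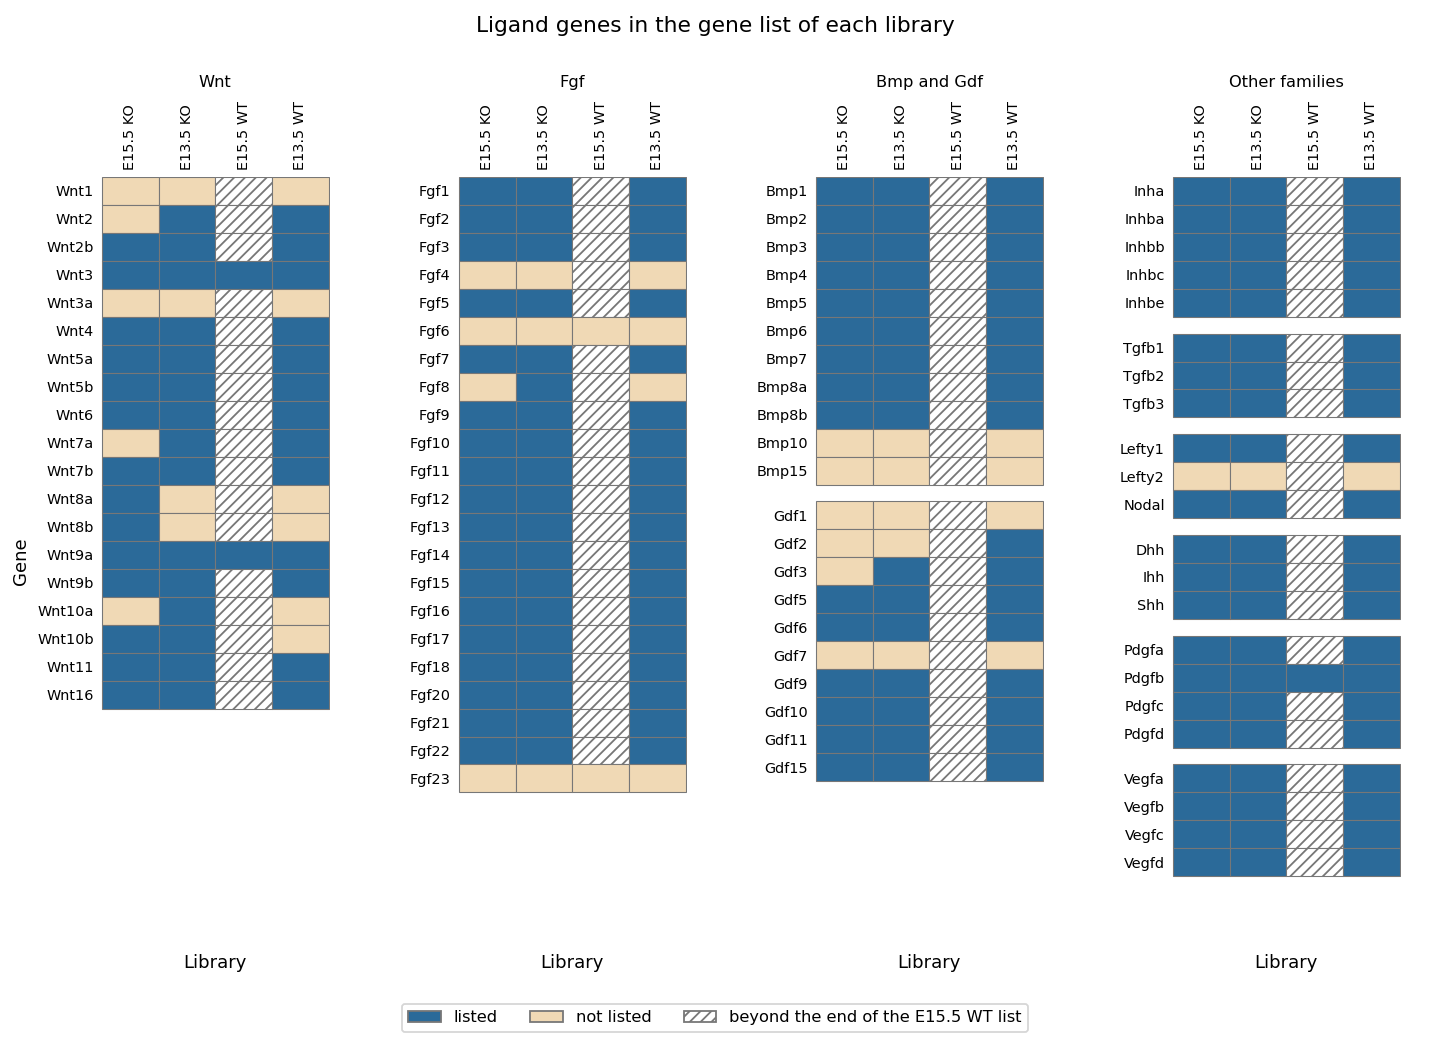
Each row is a ligand gene and each column a library; blue is listed, tan not listed, and hatched outside the part that the cut E15.5 WT list covers. The tan cells fall in the Wnt, Fgf, Bmp, Gdf and Nodal families; 65 of the 84 genes are blue in the 3 complete lists.

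The promoters of 5 of the 9 differing genes, taken from the RefSeq table, are printed here with that of Wnt1, the unlisted neighbour of Wnt10b, because these genes carry the differences between libraries. Each runs 5′ to 3′ on the gene's own strand from 250 bases before to 50 bases after the annotated start (RefSeq, GRCm38.p6), and capitals mark CpG dinucleotides, the sites of DNA methylation.
Wnt2 (chr6:18030396-18030695, minus strand): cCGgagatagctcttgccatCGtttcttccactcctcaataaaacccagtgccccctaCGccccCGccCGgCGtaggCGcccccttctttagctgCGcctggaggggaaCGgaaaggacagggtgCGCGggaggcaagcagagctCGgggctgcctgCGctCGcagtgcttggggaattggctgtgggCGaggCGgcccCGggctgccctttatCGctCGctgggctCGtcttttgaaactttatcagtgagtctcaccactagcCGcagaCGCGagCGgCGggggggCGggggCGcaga
Wnt7a (chr6:91411304-91411603, minus strand): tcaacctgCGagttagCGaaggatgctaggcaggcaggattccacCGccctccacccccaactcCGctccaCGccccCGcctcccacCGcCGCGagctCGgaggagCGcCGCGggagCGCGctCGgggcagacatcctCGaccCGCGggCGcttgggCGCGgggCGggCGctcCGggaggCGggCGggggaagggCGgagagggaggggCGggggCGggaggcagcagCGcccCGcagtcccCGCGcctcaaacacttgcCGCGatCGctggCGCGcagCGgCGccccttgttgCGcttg
Wnt10b (chr15:98778101-98778400, minus strand): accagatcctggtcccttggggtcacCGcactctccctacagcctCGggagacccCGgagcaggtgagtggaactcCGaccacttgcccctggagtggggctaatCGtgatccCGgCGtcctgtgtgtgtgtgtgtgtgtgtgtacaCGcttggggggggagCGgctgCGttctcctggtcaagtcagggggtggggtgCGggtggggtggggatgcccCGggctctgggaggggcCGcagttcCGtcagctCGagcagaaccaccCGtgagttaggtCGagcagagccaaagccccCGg
Wnt1 (chr15:98789607-98789906, plus strand): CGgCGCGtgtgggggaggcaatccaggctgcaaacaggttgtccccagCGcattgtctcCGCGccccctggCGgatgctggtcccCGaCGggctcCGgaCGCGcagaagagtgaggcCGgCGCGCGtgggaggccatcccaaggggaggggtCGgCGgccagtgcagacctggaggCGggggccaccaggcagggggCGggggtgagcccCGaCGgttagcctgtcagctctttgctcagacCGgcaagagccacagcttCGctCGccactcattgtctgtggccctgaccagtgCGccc
Wnt8b (chr19:44493222-44493521, plus strand): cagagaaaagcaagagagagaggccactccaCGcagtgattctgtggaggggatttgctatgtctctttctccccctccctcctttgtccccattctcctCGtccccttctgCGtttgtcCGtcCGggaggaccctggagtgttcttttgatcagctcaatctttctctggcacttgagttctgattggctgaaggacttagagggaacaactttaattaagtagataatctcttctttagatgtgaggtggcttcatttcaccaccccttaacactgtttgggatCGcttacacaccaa
Gdf2 (chr14:33940789-33941088, plus strand): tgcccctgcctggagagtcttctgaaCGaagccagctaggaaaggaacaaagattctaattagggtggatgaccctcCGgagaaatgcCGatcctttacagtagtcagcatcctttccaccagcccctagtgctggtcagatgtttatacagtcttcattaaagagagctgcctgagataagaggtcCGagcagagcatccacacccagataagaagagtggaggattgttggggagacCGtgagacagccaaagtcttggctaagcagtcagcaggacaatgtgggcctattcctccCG
Wnt7a held 42 CpG in its 300 bases, Wnt2 held 27, Wnt1 26 and Wnt10b 18, while Wnt8b and Gdf2 held 6 each. Among the 5 differing genes printed, the count thus ran from 6 to 42. Wnt8a, Wnt10a, Fgf8 and Gdf3, which also differed, have no promoter entry. A CpG count over the whole set is void, because only 61 of the 84 ligands (72.6%) have a promoter entry, under the 80% required here.

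The Wnt family was the most divided of the 10, with 11 of 19 genes in all 3 complete lists, 6 in some and 2 in none. Among all annotated protein-coding genes, 8.67% were in some. The family was singled out after the lists were seen, and its division was not tested. Listed throughout were Wnt2b, Wnt3, Wnt4, Wnt5a, Wnt5b, Wnt6, Wnt7b, Wnt9a, Wnt9b, Wnt11 and Wnt16. Wnt7b is a Wnt of the embryonic pancreatic epithelium, Wnt5a acts mainly without beta-catenin, and Wnt4, Wnt9b and Wnt11 are known from kidney development. The E15.5 KO list held 14 Wnts, the E13.5 KO list 15 and the E13.5 WT list 13. Wnt1 (chromosome 15, 98789857 to 98793837, mm10/GRCm38, as for all positions here), which patterns the midbrain, and Wnt3a (chromosome 11, 59248033 to 59290752), needed for somites and the tail bud, were in none.

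Wnt2 (chromosome 6, 17988940 to 18030585), which acts with Wnt2b in the foregut to specify the lung, and Wnt7a (chromosome 6, 91363981 to 91411363), a limb and Müllerian duct signal, were not in E15.5 KO and were in E13.5 KO and E13.5 WT. Wnt8a (chromosome 18, 34542313 to 34548273), a signal of the early posterior embryo, and Wnt8b (chromosome 19, 44493472 to 44514273), a forebrain Wnt, had the opposite listing: they were in E15.5 KO and in neither E13.5 list. Wnt10b (chromosome 15, 98770712 to 98778150), an inhibitor of fat cell formation, was in E15.5 KO and E13.5 KO and not in E13.5 WT. Wnt10a (chromosome 1, 74791516 to 74804179), known from teeth and skin appendages, was in E13.5 KO alone. The identifiers of these 6 genes come after the last entry for E15.5 WT, so the absence of Wnt10b from WT rests on the E13.5 WT list alone.

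**Figure D2:**
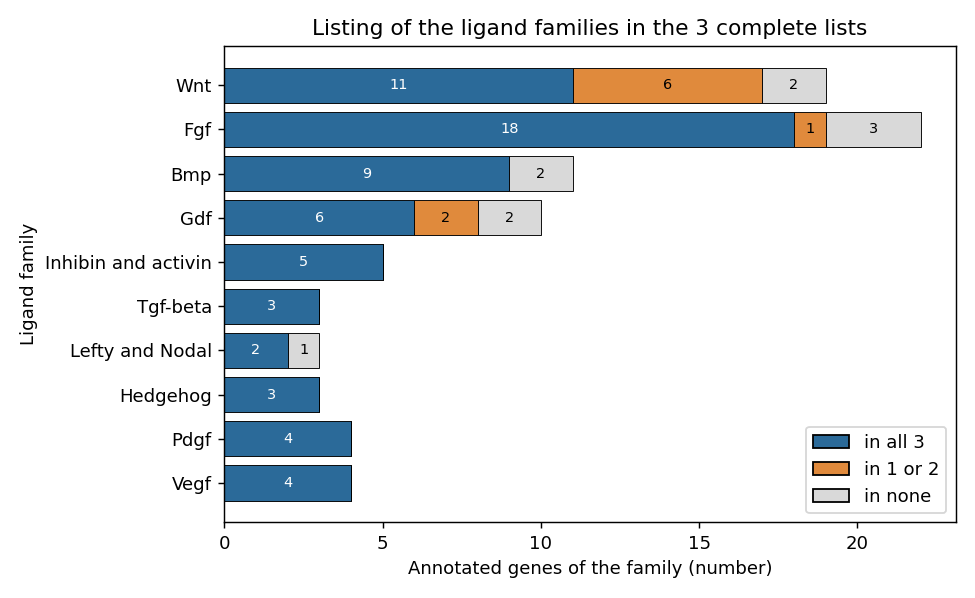
Bars give the annotated genes of each ligand family, split by whether all 3 complete lists (blue), 1 or 2 of them (orange) or none (grey) held the gene. Wnt has 6 genes in the orange class, Gdf 2 and Fgf 1, and the other 7 families have none.

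In the Fgf family 18 of 22 genes (81.8%) were in all 3 lists, against 72.8% of all annotated protein-coding genes. The 18 include the intracellular Fgf11 to Fgf14, and the difference in share was not tested. Fgf7 and Fgf10, mesenchymal Fgfs that signal through the epithelial form of Fgfr2, were in all 3, as were Fgf1, Fgf2, Fgf9 and Fgf18. Fgf15 and Fgf21, endocrine Fgfs of the intestine and of the liver and pancreas, were also in all 3. Fgf8 (chromosome 19, 45736798 to 45742915), a signal of gastrulation, the midbrain border and the limb, was in E13.5 KO and not in E15.5 KO or E13.5 WT. Fgf4 (chromosome 7, 144847367 to 144865243) of the early embryo, Fgf6 (chromosome 6, 127015586 to 127028187) of muscle and Fgf23 (chromosome 6, 127072902 to 127081408), the bone hormone of phosphate balance, were in none. Fgf6 and Fgf23 fall within the E15.5 WT list, which did not hold them either.

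In the Bmp family 9 of 11 genes (81.8%) were in all 3 lists, against 72.8% of all annotated protein-coding genes. Among them were Bmp2, Bmp4, Bmp7 and the protease gene Bmp1, and the same 9 were in each list. Bmp10 (chromosome 6, 87428994 to 87437677), a heart ligand, and Bmp15 (X chromosome, 6314107 to 6320721), an oocyte ligand, were in none. The other oocyte factor of the family, Gdf9, was in all 3. The E15.5 KO list held 6 Gdfs, the E13.5 KO list 7 and the E13.5 WT list 8 of 10. Gdf11, which limits endocrine progenitors in the fetal pancreas, and Gdf15, a stress-induced ligand, were in all 3. Gdf3 (chromosome 6, 122605403 to 122610087), a ligand of pluripotent cells, was not in E15.5 KO and was in both E13.5 lists. Gdf2 (chromosome 14, 33941039 to 33947198), also called BMP9, a liver-made ligand of vessels, was in E13.5 WT alone. Gdf1 (chromosome 8, 70329817 to 70331587), a left-right signal, and Gdf7 (chromosome 12, 8297918 to 8301954) of the neural roof plate were in none. Gdf1 overlaps Cers1 on its own strand and Upf1 on the other, and both of those genes were in all 3 lists. Whether reads of Gdf1 were left out or given to Cers1 was not tested, so its absence is uncertain.

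The activin and inhibin subunits Inha, Inhba, Inhbb, Inhbc and Inhbe, the ligands Tgfb1, Tgfb2 and Tgfb3, and Nodal with its inhibitor Lefty1 were in all 3 lists. Lefty2 (chromosome 1, 180893108 to 180899103) was in none. Lefty1 and Lefty2 are close paralogs, as are Bmp8a and Bmp8b, which were both listed throughout, so a listing within such a pair is uncertain. The hedgehog ligands Shh, Ihh and Dhh were in all 3 lists, and so were Pdgfa, Pdgfb, Pdgfc and Pdgfd and the vessel and lymphatic growth factors Vegfa, Vegfb, Vegfc and Vegfd. Listing alone says nothing of how many cells expressed Shh.

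The comparison of E15.5 KO with E13.5 KO sets the later KO library against the earlier. Of the 73 ligands in either list, 2 (2.74%) were in E15.5 KO only and 5 (6.85%) in E13.5 KO only. The background was 2.55% in E15.5 KO only and 5.03% in E13.5 KO only among protein-coding genes, and 7.37% and 10.4% among all genes. The ligands' shares lay near those of protein-coding genes. The 2 in E15.5 KO only were Wnt8a and Wnt8b, and the 5 in E13.5 KO only were Wnt2, Wnt7a, Wnt10a, Fgf8 and Gdf3. Of the 7, 5 were Wnts, which made up 17 of the 73, a split by family that was not tested. Of the 5 in E13.5 KO only, 3 (Wnt2, Wnt7a and Gdf3) were also in E13.5 WT. Age, sort and library coincide here and cannot be told apart.

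Setting E13.5 KO beside E13.5 WT compares 1 library of each genotype at the age with complete lists. Genotype, sort and library coincide here and cannot be told apart. The E13.5 KO list was also longer, at 26341 genes (17154 protein-coding) against 25463 (17108 protein-coding) in E13.5 WT. Of the 72 ligands in either list, 3 (4.17%) were in E13.5 KO only and 1 (1.39%) in E13.5 WT only. The background was 3.17% in E13.5 KO only and 2.91% in E13.5 WT only among protein-coding genes, and 9.72% and 6.61% among all genes. The 3 were Wnt10a, Wnt10b and Fgf8, and the 1 was Gdf2. The lists thus differed in 4 ligands, a count too small to rank against the background. The E13.5 KO list is in both of these comparisons, so Fgf8 and Wnt10a, which it alone held, count in each.

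**Figure D3:**
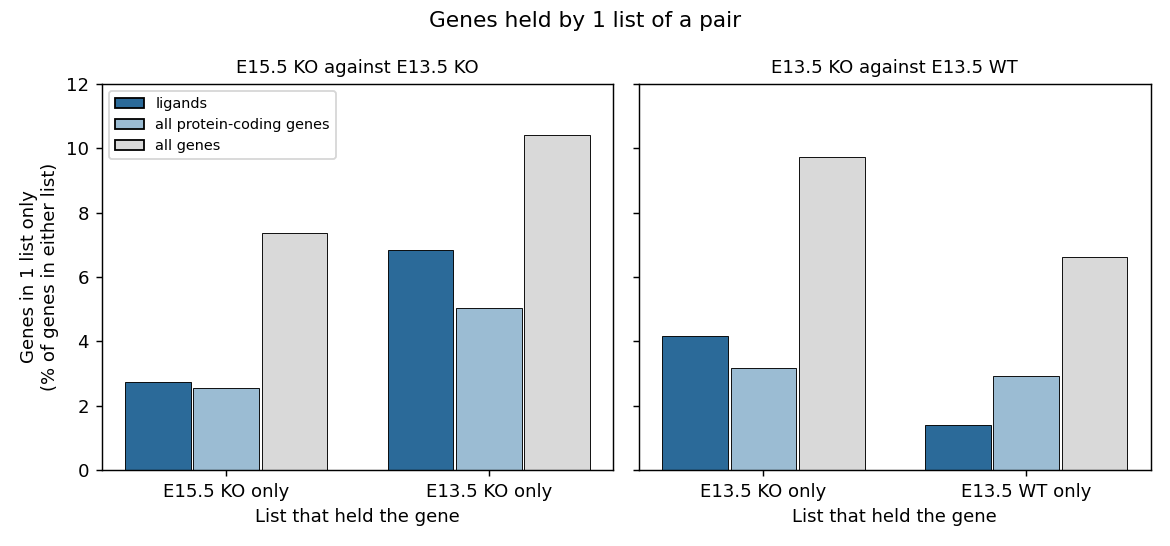
Bars give the genes held by 1 list of a pair as a percentage of the genes in either list, for the ligands, all protein-coding genes and all genes. The ligand bars (2.74% and 6.85% on the left, 4.17% and 1.39% on the right) stand below those of all genes. In the same order the protein-coding bars are 2.55%, 5.03%, 3.17% and 2.91%. Only the ligand bar of 1.39%, which is 1 gene, lies below its protein-coding bar, and the others lie above theirs.

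The cut E15.5 WT list covers 5 ligands. Wnt3 and Wnt9a, a pair of Wnts from different clusters on chromosome 11, and Pdgfb, the platelet-derived ligand of pericytes, were in E15.5 KO, E13.5 KO, E15.5 WT and E13.5 WT alike. Fgf6 and Fgf23 were in none of the 4. No ligand in this stretch differed, either between E15.5 KO and E15.5 WT or between E15.5 WT and E13.5 WT. Over the same stretch 4.68% of protein-coding genes were in 1 list only between E15.5 KO and E15.5 WT, and 6.29% between E15.5 WT and E13.5 WT.

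Of the 53 genes reported on the receptor lists, 52 were in all 3 complete lists, against 72.8% of all annotated protein-coding genes. These lists hold receptors and co-receptors, and also Hhip, which is neither. The 52 are well-known signalling genes picked by name, so the shares are given side by side only. They included the 10 Frizzled genes with Lrp5 and Lrp6, Fgfr1 to Fgfr4, the type I and type II receptors of the Tgf-beta superfamily, Ptch1 and Smo, Pdgfra and Pdgfrb, and Kdr and Flt1. The exception was Tdgf1 (chromosome 9, 110939603 to 110946158), the Nodal co-receptor Cripto, which was in E15.5 KO and in neither E13.5 list. Nodal itself was listed throughout.

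Of the 129 genes reported on 12 lists of receptors, inhibitors, transducers and targets, 122 were in all 3 complete lists. Between E15.5 KO and E13.5 KO, 1 (0.781%) was in E15.5 KO only and 5 (3.91%) in E13.5 KO only, against the protein-coding 2.55% and 5.03%. The 5 were Rspo1 (chromosome 4, 124986430 to 125009099) and Rspo2 (chromosome 15, 43020794 to 43170826), secreted amplifiers of Wnt signalling, Grem1 (chromosome 2, 113746164 to 113758646), a secreted Bmp inhibitor, Sost (chromosome 11, 101962458 to 101967015), a secreted Wnt inhibitor known from bone, counted here on the Tgf-beta superfamily inhibitor list, and Gli1 (chromosome 10, 127329882 to 127341974), a transcription factor and target of hedgehog signalling. All 5 were also in E13.5 WT. Between E13.5 KO and E13.5 WT, 0 of the 129 genes were in E13.5 KO only and 0 in E13.5 WT only. The protein-coding shares there were 3.17% and 2.91%. The 129 genes were picked by name, and the difference from these shares was not tested. The other hedgehog targets on the lists, Ptch1 and Hhip, were in all 3 complete lists, as were the Wnt target Axin2 and the Fgf targets Etv4, Etv5, Dusp6 and Spry2. The Wnt inhibitor Dkk4 was in none.

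**Figure D4:**
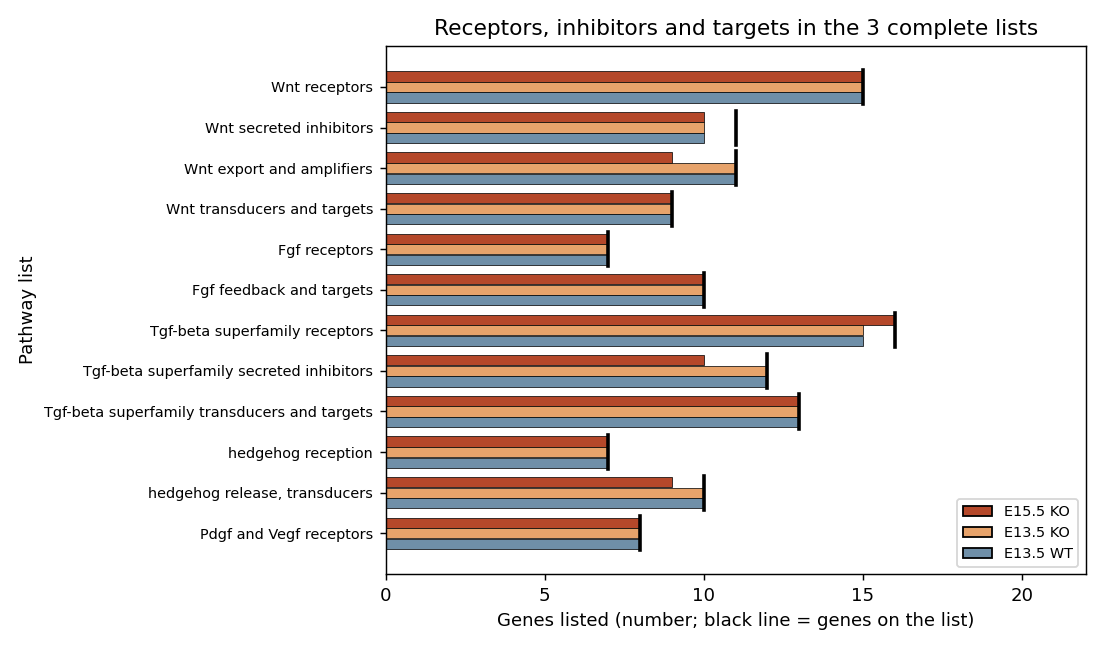
Bars give the genes listed in each complete list for 12 lists of pathway genes, and the black line marks the number of genes on each list. E15.5 KO falls short of both E13.5 lists by 2 genes among Wnt export and amplifiers and by 1 among hedgehog release and transducers, has 10 genes of the Tgf-beta superfamily inhibitor list against 12 in each E13.5 list (the difference being Grem1 and the Wnt inhibitor Sost), and exceeds both E13.5 lists by 1 among Tgf-beta superfamily receptors.

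E15.5 KO also lacked markers of other cell types that both E13.5 lists held, a listing shown by 554 of the 17949 protein-coding genes listed anywhere (3.09%). The marker lists are short and were not tested against that share. The mesenchyme list had 11 of 12 members in E15.5 KO, which lacked Nkx3-2, and 12 of 12 in E13.5 KO and E13.5 WT. The endothelium list had 5 of 7 in E15.5 KO, which lacked Cdh5 and Tie1, and 7 of 7 in each E13.5 list. The neural crest, glia and neuron list had 4 of 6 in E15.5 KO, which lacked Dbh and Foxd3, and 6 of 6 in each E13.5 list. Dbh is within the part covered for E15.5 WT and was listed there. The immune and erythroid list had 4 of 7 in E15.5 KO, which lacked Cd3d, Gata1 and Hbb-bh1, and 7 of 7 in each E13.5 list. The mesothelium list was complete at 5 of 5 in all 3. The part of these cell types in the listing of Wnt2, Wnt7a, Gdf3, Rspo1, Rspo2, Grem1 and Gli1 was not tested. Fewer cells of a type, less RNA per cell, a change in expression of the gene and fewer reads cannot be told apart in a list. Age, sort and library coincide here too. The E15.5 KO list held 16717 protein-coding genes, against 17154 in E13.5 KO and 17108 in E13.5 WT.

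Several ligand genes lie in clusters left by old duplications, and close neighbours were often listed differently. There were 11 pairs of successive ligand genes less than 100 kb apart. Of the 10 with at least 1 listed gene, 8 had different listings, against 27% of 14449 pairs of adjacent protein-coding genes within that distance. The ligand pairs need not be adjacent genes or duplicates, and Wnt1 and Fgf4 each count in more than 1 pair, so the 2 shares are given side by side only. The 8 include Wnt1 with Dhh, which are of different families and 97.3 kb apart. They also include Lefty2 with Lefty1, 35.9 kb apart, close paralogs whose listing is uncertain. Wnt6 was in all 3 complete lists and Wnt10a, 6.19 kb away, in E13.5 KO alone. Wnt10b was in both KO lists and its neighbour Wnt1, 11.7 kb away, in none. Wnt9a was in all 3 and Wnt3a, 16.2 kb away, in none, whereas Wnt9b and Wnt3, 24.3 kb apart, were both in all 3. Fgf4 was in none while Fgf3 and Fgf15 on either side, 2.93 kb and 31.3 kb away, were in all 3. Gdf10 was in all 3 and Gdf2, 3.06 kb away, in E13.5 WT alone. Inhbe and Inhbc, 1.91 kb apart, were in all 3, and Fgf6 and Fgf23, 44.7 kb apart, in none.

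Ligand genes in all 3 lists had a longer median exon total than the others. It was 3.53 kb for the 65 ligands in all 3 complete lists, 2.47 kb for the 9 in some and 2.69 kb for the 10 in none. Among protein-coding genes it was 4.22, 2.28 and 1.78 kb. The ranges overlapped: exon totals ran over 0.951 to 8.87 kb for ligands in all 3, 1.35 to 3.48 kb for those in some and 1.35 to 4.66 kb for those in none. Base composition was close between the classes of ligands. The GC content of the longest coding transcript had a median of 53% in all 3, 52.9% in some and 53.1% in none. Among protein-coding genes the medians were 50.3%, 49% and 42.9%.

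**Figure D5:**
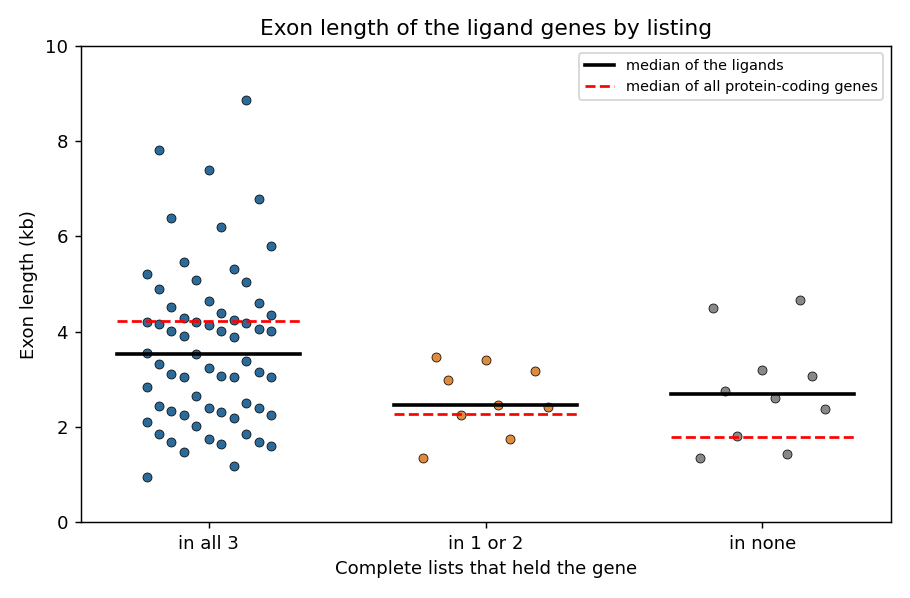
Each point is a ligand gene, placed by the number of complete lists that held it and by its exon length in kb; black lines are medians of the ligands and dashed red lines those of all protein-coding genes. The ligand medians are 3.53, 2.47 and 2.69 kb, and the points of the 3 classes overlap.

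Overlap with other annotated genes also went with listing. Of the 65 ligands in all 3 complete lists, 34 overlapped another gene on either strand, against 0 of the 9 in some and 1 of the 10 in none, which was Gdf1. Among protein-coding genes 53.7% of those in all 3 overlapped another gene, 36.7% of those in some and 22.6% of those in none. Gene span, introns included, differed between the classes as well. Its median was 20.1 kb for ligands in all 3, 7.44 kb in some and 7.56 kb in none. Among protein-coding genes it was 23.6, 10.8 and 5.86 kb. The part of gene span in the overlap counts was not tested. The authors' use of strand is not given in the sources used here. Whether reads of an overlapping gene, such as Nudt6 antisense to Fgf2, counted for a ligand was not tested. Overlap was counted over whole gene spans, and sharing of exons was not examined. The listing of those 34 genes is uncertain to an unknown extent. The 9 differing genes overlap no other annotated gene, but their listing still rests on 1 library per group.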

How the data were processed

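Single-cell RNA-seq gene lists of 4 libraries were used. The files the authors deposited hold an Ensembl identifier and a symbol per line and no measured value, so presence in the list is the unit. Seurat (no version) and mm10 are named in the submitters' processing notes. The aligner, annotation release, strand setting and criterion for listing were not given in the sources used here. Ligands were matched by symbol, and all 74 listed ones matched GENCODE M21 (GRCm38) by identifier with the same symbol; that annotation supplied the 10 unlisted members, positions, exon lengths and GC content. Promoters came from RefSeq (GRCm38.p6); for genes with several starts the one furthest upstream was used. Lists were compared by counts in 1 list only, over genes in either, in Python 3.11.15; no test was run, since each group has 1 library. The counting step was tested on simulated lists. Named genes were all members that differed, were in no complete list or lay in the E15.5 WT stretch, and the pathway genes not in all 3 complete lists. Some genes of the pathway and cell type lists are not reported here and were left out of their counts. Members and lists were chosen with earlier results of these data known.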

Additional observations from a re-analysis of the deposited data

How the results depend on the processing

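Matching by identifier and removing appended numbers gave the same 74 listed ligands, so these settings could not move a count. Without Fgf11 to Fgf14 and Bmp1, which every complete list held, 63 ligands were listed in E15.5 KO, 66 in E13.5 KO and 64 in E13.5 WT, and no differing gene was lost. With 12 ligands under other names the numbers were 77, 82 and 80, and the ligands in E13.5 KO only against E15.5 KO numbered 7 in place of 5, Rspo1 and Rspo2 being added. Over the identifiers covered for E15.5 WT, the ligands listed in 1 list only numbered 0 in E15.5 KO and 0 in E13.5 KO for the KO ages, and 0 in E13.5 KO and 0 in E13.5 WT for the genotypes, since 3 listed ligands remain. The background depended on the genes counted: E15.5 KO only was 7.37% of all genes, 2.55% of protein-coding genes and 3.82% without predicted and mitochondrial genes, and E13.5 KO only was 10.4%, 5.03% and 6.46% in that comparison. Protein-coding genes with exon lengths in the range of the ligands, an alternative chosen after seeing the data, gave 2.43% and 5.05%. Settings on summed counts could not be applied to lists. No paired analysis was possible because no group has more than 1 library. Depth is unknown, so an unlisted gene may have escaped detection.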

Other observations

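Some ligands of related families have symbols that follow other patterns. Of 12 such genes, picked by name, 9 were in all 3 complete lists, 2 in some and 1 in none. Among all annotated protein-coding genes the shares were 72.8%, 8.67% and 18.5%, so these 12 do not stand out from other coding genes. Gdnf, Nrtn and Artn, neurotrophic ligands of the Ret receptor, were in all 3, and Pspn, the remaining ligand of that group, was in none. Amh and Mstn of the Tgf-beta superfamily, the Vegf relative Pgf, the Frizzled ligand Ndp, and Rspo3 and Rspo4 were in all 3 as well. The 2 in some lists were Rspo1 and Rspo2.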
